A study of Mus musculus with 2 samples.

Results

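The follicular helper genes Cxcr5, Sostdc1, Izumo1r, Il6ra and Tbc1d4 were followed across the CD4 and CD8 T cells of 2 single-cell libraries. These 5 members, of 2000 genes in the files, were selected on earlier results of the same data, in which Cxcr5 and Sostdc1 had stood out as more often detected after anti-IL-2 treatment. Their differences between the libraries are therefore a description and carry no test. Both libraries came from an allogeneic transplant: wild-type BALB/c recipients underwent lethal irradiation and received spleen and bone marrow cells of wild-type C57BL/6 donors. From day 0 to day 6 the recipients received either tacrolimus, a calcineurin inhibitor that blocks NFAT signalling below the T-cell receptor, or a monoclonal antibody to IL-2, a cytokine on which activated T cells grow, and donor cells were taken from the spleen on day 6. The labels give 1 library per treatment, without the recipients' age or number, so treatment and library cannot be told apart. The question here was where the 5 genes were detected together, and whether CD8 cells with Cxcr5 carried the genes that went with Cxcr5 in CD4 cells.

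Follicular helper T cells are CD4 T cells that enter B-cell follicles and help B cells form germinal centres. Entry depends on the chemokine receptor encoded by Cxcr5, which binds CXCL13, and the lineage factor is Bcl6. Il6ra encodes the ligand-binding chain of the IL-6 receptor, which signals through the chain encoded by Il6st and promotes the early steps of this fate, whereas IL-2 signalling opposes it. Sostdc1 encodes a secreted antagonist of BMP and WNT signals, Izumo1r encodes the surface protein folate receptor 4, and Tbc1d4 encodes a Rab GTPase-activating protein that controls glucose transporter traffic. Cxcr5 is also known from CD8 T cells that carry the transcription factor TCF1 (gene Tcf7) and keep a capacity to renew. Bcl6 and Prdm1, the factor that opposes it, were not among the 2000 genes and are not analysed here.

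The 5 genes are protein-coding and lie at separate loci in GENCODE M21 (GRCm38). Cxcr5 lies on chromosome 9 from 44511787 to 44561877 and Izumo1r on the same chromosome from 14885814 to 14903949, both on the minus strand. Sostdc1 lies on chromosome 12 from 36314139 to 36318452 (plus strand), Il6ra on chromosome 3 from 89864059 to 89913196 (minus strand) and Tbc1d4 on chromosome 14 from 101442360 to 101609191 (minus strand). The RefSeq promoter table (GRCm38.p6) held 3 of the 5 members, which are shown because these genes were detected together in CD4 cells. Each stretch runs 5′ to 3′ on the gene's strand, from 250 bases before the start site to 50 bases after it. The positions are chr9:14903718-14904017 for Izumo1r, chr3:89913147-89913446 for Il6ra and chr14:101609142-101609441 for Tbc1d4, all on the minus strand. Capitals mark matches, on either strand, to CAGGTG (an E-box) or to CTTTGA or CTTTGT (forms of the core bound by TCF and LEF factors), which do not overlap one another here.
Izumo1r: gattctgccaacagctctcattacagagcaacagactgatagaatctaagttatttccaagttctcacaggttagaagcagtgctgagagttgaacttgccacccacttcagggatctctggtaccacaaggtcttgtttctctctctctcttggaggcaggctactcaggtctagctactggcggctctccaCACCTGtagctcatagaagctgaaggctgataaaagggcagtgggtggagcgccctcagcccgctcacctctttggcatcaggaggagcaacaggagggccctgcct
Il6ra: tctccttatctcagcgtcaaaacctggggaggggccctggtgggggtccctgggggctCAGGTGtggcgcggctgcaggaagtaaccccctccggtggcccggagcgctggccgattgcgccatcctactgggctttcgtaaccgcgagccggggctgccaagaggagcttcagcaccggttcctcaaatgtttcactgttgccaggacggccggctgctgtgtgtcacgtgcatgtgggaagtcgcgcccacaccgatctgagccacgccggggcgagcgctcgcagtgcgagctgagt
Tbc1d4: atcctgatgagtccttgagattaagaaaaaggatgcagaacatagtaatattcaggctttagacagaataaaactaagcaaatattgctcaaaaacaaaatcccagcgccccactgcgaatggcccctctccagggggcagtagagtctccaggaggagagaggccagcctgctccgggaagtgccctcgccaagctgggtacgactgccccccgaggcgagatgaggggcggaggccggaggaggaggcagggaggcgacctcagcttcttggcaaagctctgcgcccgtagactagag
CAGGTG was matched once in the Izumo1r stretch, on the opposite strand, and once in the Il6ra stretch, on the gene's own strand. The other 2 motifs had 0 matches in the 3 stretches. Of all 32851 promoters in the table, 20.2% held CAGGTG, 16% CTTTGA and 18.7% CTTTGT, so the matches describe the letters and mark no site.

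After filtering, 1183 anti-IL-2 cells (median 13014 UMIs) and 1416 tacrolimus cells (median 13258.5 UMIs) were compared. A UMI is a molecular tag that counts 1 captured transcript. Cells with Cd4 and no Cd8a or Cd8b1 formed the CD4 gate (286 anti-IL-2 and 291 tacrolimus cells), and cells with Cd8a or Cd8b1 and no Cd4 the CD8 gate (744 and 986 cells). The 112 and 92 cells with both, and the 41 and 47 with neither, stayed out of the gates. Of 5 T-cell markers Cd5 alone was among the measured genes, and it was detected in 77.6% of anti-IL-2 and 89.3% of tacrolimus CD4 cells and in 79.4% and 71.8% of CD8 cells. Shares below are the percentage of cells with at least 1 UMI, and intervals are exact 95% binomial intervals that cover counting error only. The libraries also differed in ways that move with these shares. The cell-cycle list had 14 of its 16 genes in fewer anti-IL-2 than tacrolimus CD4 cells, by a rule given below that calls 37.4% of genes in that direction. In CD8 cells 0 of 16 were called, where the rule calls 9.87% of genes in fewer anti-IL-2 cells. The list's median log2 ratio in CD8 cells was still lower, at -0.40 beside -0.16 over all genes that the rule covers. Transcripts of the pancreas were more frequent in the tacrolimus library, where the digestive enzyme gene Prss2 was in 16.6% of CD8 cells against 1.21% in the anti-IL-2 library. The part of these differences in the shares of the 5 genes was not tested.

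In the CD4 gate of the anti-IL-2 library the 5 genes were found in 22.0% to 35.7% of cells, each in a larger share than in the tacrolimus library. Cxcr5 was in 86 of 286 CD4 cells (30.1%, interval 24.8 to 35.7) of the anti-IL-2 library and in 12 of 291 (4.12%, 2.15 to 7.09) of the tacrolimus library. Sostdc1 was in 63 anti-IL-2 CD4 cells (22.0%, 17.4 to 27.3) and in 2 tacrolimus CD4 cells (0.687%, 0.0833 to 2.46). Of the 2 genes at the cell surface other than Cxcr5, Izumo1r was in 25.5% (20.6 to 31.0) against 14.1% (10.3 to 18.6). Izumo1r was thus the member most often detected in tacrolimus CD4 cells. Il6ra was in 26.6% (21.5 to 32.1) against 9.97% (6.78 to 14.0), and Tbc1d4, the most widely detected member, in 35.7% (30.1 to 41.5) against 9.97% (6.78 to 14.0). For all 5 genes the CD4 intervals of the libraries did not overlap. Nothing is read from this, since the members had been selected on this contrast and the intervals cover counting error only.

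**Figure D1:**
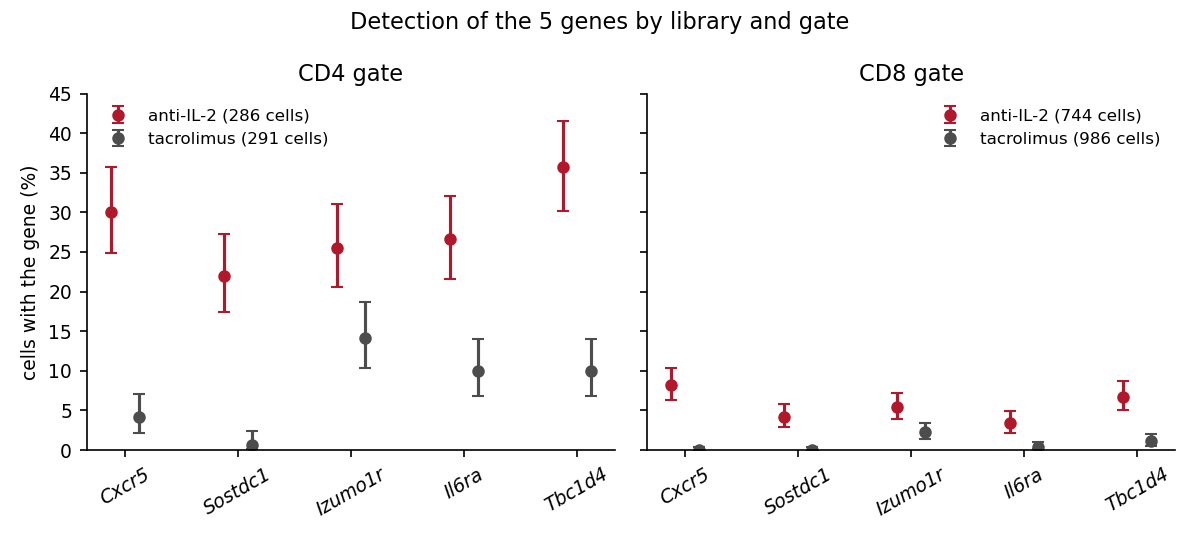
Percentage of cells (vertical axis) in which each of the 5 genes was detected, by gate (panels) and library (colours); points are shares and bars exact 95% intervals for counting error in 1 library each. Each gene sits higher in the anti-IL-2 library in both gates, and Cxcr5 and Sostdc1 sit at 0 of 986 tacrolimus CD8 cells.

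In the whole CD8 gate all 5 genes were sparser than in the CD4 gate. Cxcr5 was in 61 of 744 anti-IL-2 CD8 cells (8.20%, 6.33 to 10.4), Tbc1d4 in 6.72% (5.03 to 8.76), Izumo1r in 5.38% (3.87 to 7.25), Sostdc1 in 4.17% (2.85 to 5.86) and Il6ra in 3.36% (2.19 to 4.92). Neighbours in this order had overlapping intervals. For Cxcr5 the order of the gates turned in the few cells whose UMI total could be read directly, at 2 of 11 CD4 (18.2%, 2.28 to 51.8) and 8 of 33 CD8 cells (24.2%, 11.1 to 42.3), with intervals that overlap widely. In the tacrolimus CD8 cells, Cxcr5 and Sostdc1 were in 0 of 986 cells each (exact interval 0 to 0.373%, and 0.304% for 3 cells). Izumo1r was in 22 tacrolimus CD8 cells (2.23%), Tbc1d4 in 11 (1.12%) and Il6ra in 4 (0.406%). The order therefore differed between the libraries, with Cxcr5 first among CD8 cells under anti-IL-2 and undetected under tacrolimus.

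Tacrolimus cells were then thinned to the UMI totals of the anti-IL-2 cells, and a gene was called where it was in at least 5% of cells of either library with a share ratio of at least 1.5. By this rule all 5 members were called in more anti-IL-2 CD4 cells, where 12.2% of the 915 genes at the minimum were called in that direction and 37.4% in the other. Since the members had been selected on this contrast, nothing is read from their count. The share ratio was 7.29 (3.97 to 14.7) for Cxcr5, 32.1 (8.51 to 270.4) for Sostdc1, 3.84 (2.49 to 6.11) for Tbc1d4, 3.09 (1.95 to 5.07) for Il6ra and 1.90 (1.27 to 2.89) for Izumo1r. In CD8 cells 3 of the 5 were called (Cxcr5, Izumo1r and Tbc1d4), against 8.37% of 932 genes called in more and 9.87% in fewer anti-IL-2 cells. With 0 tacrolimus CD8 cells, the ratio of Cxcr5 has only a lower limit, which is 21.3 by the exact interval and 26.9 where 3 cells stand for the count of 0. For Sostdc1, which missed the minimum of 5%, these limits are 10.5 and 13.7. The CD8 ratio was 6.02 (3.095 to 12.8) for Tbc1d4 and 2.41 (1.40 to 4.26) for Izumo1r. Il6ra also missed the minimum in CD8 cells, with a ratio of 8.28 (2.86 to 32.7) that rests on 4 tacrolimus cells.

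Other genes of the follicular helper lists moved less evenly between the libraries. Of 11 receptor and ligand genes at the minimum in CD4 cells (members aside), 5 were in more anti-IL-2 cells (Cd200, Il6st, P2rx7, Ccr7 and Tnfsf8), 1 in fewer (Il21) and 5 in neither. Their median log2 ratio was 0.25, beside -0.31 over all genes at the minimum. Il6st, the signalling partner of Il6ra, was in 22.4% of anti-IL-2 against 6.53% of thinned tacrolimus CD4 cells. Il21, the cytokine by which these cells help B cells, was in 7.69% against 12.7%. Pdcd1 (72.0% against 60.5%) and Icos (85.0% against 84.5%), which encode receptors high on follicular helper cells and on other activated T cells, were not called. From 84.5% a call of Icos in more anti-IL-2 cells is out of reach of the rule. From 60.5% there is little room for such a call of Pdcd1. Their missing calls therefore do not set them apart from the genes called in more cells. Among 10 transcription factor genes at the minimum, 6 were in more anti-IL-2 CD4 cells (Tox, Tox2, Tcf7, Id3, Pou2af1 and Egr2) and 1, Id2, in fewer. Tcf7 was in 71.0% against 14.8% of CD4 cells and in 31.5% against 2.84% of CD8 cells. Tox2 was in 37.4% against 5.15% of CD4 cells and in 22.6% against 2.54% of CD8 cells. Foxp3, the regulatory T-cell factor, was in 1.05% of anti-IL-2 and 0.687% of tacrolimus CD4 cells.

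Droplets can pick up free RNA, so the members were also read in cells with myeloid markers and in CD8 cells without Tcf7. Whether such cells express the members themselves was not tested. Cells with several myeloid markers had Cxcr5 in 0 of 47 anti-IL-2 cells (median 11894 UMIs, exact interval 0 to 7.55%, and 6.38% for 3 cells). Among CD8 cells without Tcf7 (median 16462 UMIs), which were deeper than those with it (median 12567 UMIs), Cxcr5 was in 3 of 510 (0.588%, 0.121 to 1.71), and in those with Tcf7 in 58 of 234 (24.8%, 19.4 to 30.8). The Cxcr5 reads of the CD8 gate were thus nearly all in cells that also held Tcf7. The other 4 members differed less by Tcf7 in CD8 cells. Sostdc1 was in 8.55% with and 2.16% without Tcf7, Izumo1r in 8.55% and 3.92%, Il6ra in 7.26% and 1.57%, and Tbc1d4 in 14.1% and 3.33%. In CD4 cells Cxcr5 was in 37.4% with and 12.05% without Tcf7. Il6ra was also in 11 of the 47 myeloid-marked cells (23.4%), Tbc1d4 in 10 (21.3%), and Sostdc1 and Izumo1r in 2 each (4.26%, 0.520 to 14.5). The whole anti-IL-2 CD8 gate held Il6ra in 3.36%, Tbc1d4 in 6.72%, Sostdc1 in 4.17% and Izumo1r in 5.38%. So the myeloid-marked share was above that of CD8 cells for Il6ra and Tbc1d4, and near it for Sostdc1 and Izumo1r. For Il6ra it came close to that of CD4 cells. What part cells with myeloid markers have in the gates was not tested beyond leaving out those with 3 or more such markers.

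Within the anti-IL-2 CD4 gate, the other 4 members went with Cxcr5. Here the 86 cells with Cxcr5 (median 10602 UMIs) were set against the 200 without it (median 9985 UMIs), the latter weighted to the same depths, and a gene was called where it was in at least 10% of cells of either side with a share ratio of at least 1.5. All 4 were called in more cells with Cxcr5, where 11.1% of the 765 genes at the minimum were called in that direction and 19.2% in the other. Izumo1r was in 40.7% (30.2 to 51.8) of cells with Cxcr5 and 19.0% of those without, a ratio of 2.15. Sostdc1 was in 32.6% (22.8 to 43.5) against 16.3%, Il6ra in 36.0% (26.0 to 47.1) against 20.6%, and Tbc1d4 in 50% (39.0 to 61.0) against 29.6%. For each of the 4 the interval in cells with Cxcr5 left out the share in cells without it. The call of Tbc1d4 was lost without a minimum of detected genes, at a log2 ratio of 0.46 against 0.76. At least 2 of the 4 other members were found in 49 of the 86 cells with Cxcr5 (57.0%, 45.8 to 67.6) and in 52 of the 200 without it (26%, 20.1 to 32.7). All 5 together were in 2 cells.

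**Figure D2:**
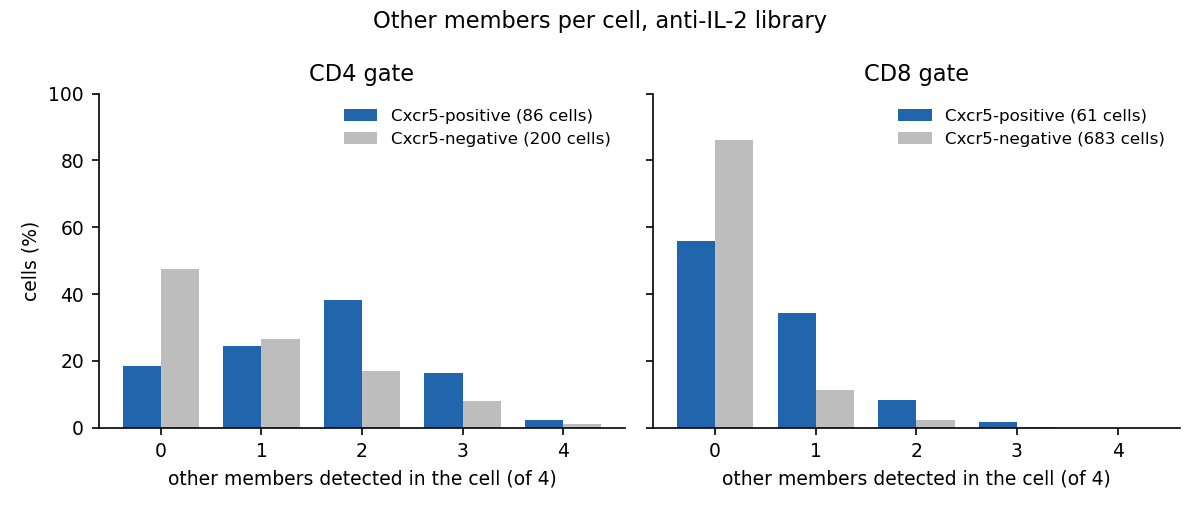
Percentage of anti-IL-2 cells (vertical axis) by the number of the 4 other members detected in the cell (horizontal axis), for cells with and without Cxcr5 in each gate. In the CD4 gate 57.0% of cells with Cxcr5 held 2 or more others; in the CD8 gate 9.84% did, and 55.7% held 0.

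The 5 genes did not pair evenly among themselves. Sostdc1 went most with Il6ra and Tbc1d4. In the CD4 gate Il6ra was in 49.2% (36.4 to 62.1) of the 63 cells with Sostdc1 and 20.4% of those without, and Tbc1d4 in 61.9% (48.8 to 73.9) against 29.4%. Izumo1r was not among the genes that went with Sostdc1, at 27.0% (16.6 to 39.7) of cells with it against 25.03% of cells without it. Izumo1r instead went with Cxcr5, which was in 47.9% (36.1 to 59.96) of the 73 CD4 cells with Izumo1r and 23.2% of those without. In the CD8 gate the pair with the highest ratio was Sostdc1 and Tbc1d4: Tbc1d4 was in 12 of 31 cells with Sostdc1 (38.7%, 21.9 to 57.8) and 4.22% of those without.

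CD8 cells with Cxcr5 carried Tbc1d4 from this group, and little of the others. The 61 cells (median 13145 UMIs) were set against the 683 CD8 cells without Cxcr5 (median 15272 UMIs) in the same way. Tbc1d4 was in 19 of the 61 (31.1%, 19.9 to 44.3) against 4.69%, a ratio of 6.64. Izumo1r was in 7 of the 61 (11.5%, 4.74 to 22.2) against 5.195%, which passed the size rule while its interval includes the share in cells without Cxcr5. Sostdc1 (8.20%, 2.72 to 18.1, against 3.84%) and Il6ra (4.92%, 1.03 to 13.7, against 3.14%) missed the minimum of 10%. So 2 of the 4 were called, where 12.5% of 819 genes were called in more and 23.7% in fewer cells with Cxcr5. At least 2 of the 4 others were in 6 of the 61 cells (9.84%, 3.70 to 20.2) and in 17 of 683 without Cxcr5 (2.49%). This count depended on the gate: all 4 were called when the cells with both Cd4 and Cd8 transcripts were assigned by the larger count, and 1, Tbc1d4, when Cd8a and Cd8b1 were both required.

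Markers of other cells were then read in the CD8 cells with Cxcr5. Both Cd8a and Cd8b1 were detected in 90.2% of CD8 cells with Cxcr5 and in 91.8% of those without. This compares detection and not the amount of Cd8 transcript, which was not compared between them. Cd40lg, a ligand by which CD4 cells help B cells, was in 2 of the 61 (3.28%, 0.3996 to 11.3) but in 60.5% of CD4 cells with Cxcr5. The B-cell marker Ms4a1 was in 0 of the 61 cells. It was also in 0 of all 744 anti-IL-2 and 0 of 986 tacrolimus CD8 cells, so its absence tells nothing. Of the 61 cells 6.56% held any of 4 B-cell markers, against 11.4% of CD8 cells without Cxcr5. Cells with at least 2 B or 3 myeloid markers had been left out beforehand, which limits both comparisons. Of 8 myeloid markers at least 1 was in 54.1% of CD8 cells with Cxcr5 against 41.4% without, mainly Cd68 (50.8% against 33.5%), while S100a8, S100a9, Tyrobp and Mpo were at 0. Cells with both Cd4 and Cd8 transcripts, which can be droplets with more than 1 cell, held Cxcr5 in 38 of 112 (33.9%, 25.3 to 43.5). Whether such droplets add to the CD8 gate was not tested beyond these values.

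Set directly against each other, cells with Cxcr5 of the CD4 and CD8 gates shared some genes at like shares and not others. Tcf7 was in 88.4% (79.7 to 94.3) of CD4 and 95.1% (86.3 to 99.0) of CD8 cells with Cxcr5. Id3, an inhibitor of E-protein factors, was in 65.1% and 73.8%, Ikzf2, which encodes the factor Helios, in 47.7% and 55.7%, and Ccr7, the lymph node homing receptor gene, in 30.2% and 32.8%. Pdcd1 (79.1% and 86.9%) and Icos (90.7% and 88.5%) were also frequent in both, and the intervals of these 6 genes overlapped between the gates. Maf, which encodes a factor of follicular helper cells, was in 52 of 86 CD4 cells with Cxcr5 (60.5%, 49.3 to 70.8) and 0 of 61 CD8 cells with it (interval 0 to 5.87%). Il6ra was in 36.0% and 4.92%, Sostdc1 in 32.6% and 8.20% and Izumo1r in 40.7% and 11.5%, with intervals that did not overlap. Gzmb, the granzyme B gene of cytotoxic cells, was in 52.3% and 90.2%, and Xcl1, a chemokine gene of CD8 cells that draws dendritic cells, in 1.16% and 41.0%. Cells without Cxcr5 differed between the gates in the same direction for Maf (51.3% of CD4 and 8.36% of CD8 cells), Cd40lg (59.4% and 1.39%) and Gzmb (72.3% and 93.3%). The same held for Izumo1r (19.0% and 5.195%), Sostdc1 (16.3% and 3.84%), Il6ra (20.6% and 3.14%) and Xcl1 (0.351% and 14.4%). With against without Cxcr5, the ratios in CD4 and CD8 cells were 1.99 and 2.13 for Sostdc1 and 2.15 and 2.21 for Izumo1r. For Il6ra they were 1.75 and 1.56, with Sostdc1 and Il6ra below the minimum in CD8 cells. The lower shares of these members were thus not particular to CD8 cells with Cxcr5.

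**Figure D3:**
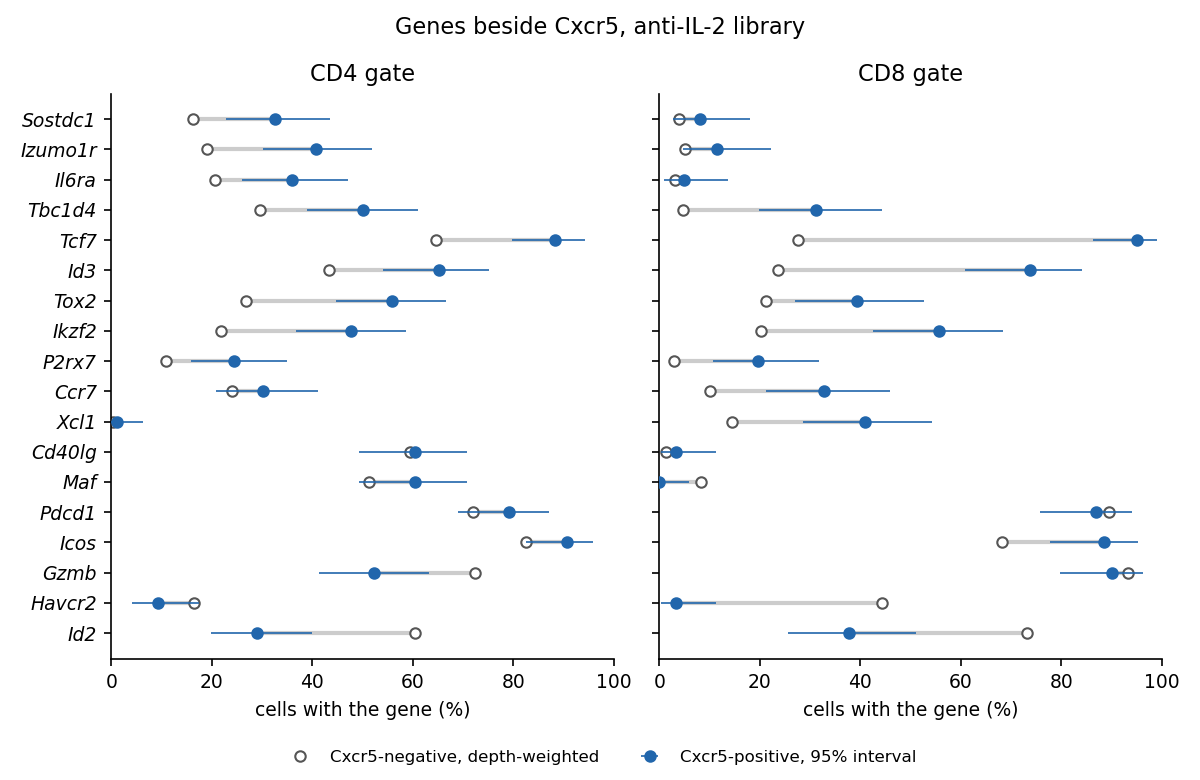
Percentage of anti-IL-2 cells with each named gene (horizontal axis), in cells with Cxcr5 (filled, bars are exact 95% intervals for counting error) and depth-weighted cells without it (open), for the CD4 gate (left) and the CD8 gate (right). Tbc1d4, Tcf7, Id3, Ikzf2 and P2rx7 lie to the right in cells with Cxcr5 of both gates, whereas Cd40lg and Maf are at 3.28% and 0 in CD8 cells with Cxcr5.

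The genes that went with Cxcr5 in CD4 cells were then counted in CD8 cells. Of 85 genes called in more CD4 cells with Cxcr5, 60 reached the minimum in CD8 cells. Of these 60, 23 were called the same way (38.3%), 2 the opposite way and 35 in neither direction. Over all 819 genes at the minimum in CD8 cells, 12.5% were called in more and 23.7% in fewer cells with Cxcr5. The 23 shared genes were 27.1% of the 85 CD4 genes and 22.5% of the 102 CD8 genes. They included Tbc1d4 and Izumo1r, Id3, Tox2, Ikzf2, P2rx7 (an ATP-gated channel gene) and Pou2af1 (a transcriptional coactivator gene). For Id3 the CD4 ratio was 1.502, at the edge of the rule. P2rx7 was in 24.4% against 10.8% of CD4 cells and in 19.7% against 2.99% of CD8 cells. Over the 60 genes the median log2 ratio in CD8 cells was 0.38, beside -0.05 over all genes at the minimum there. Of 147 genes called in fewer CD4 cells with Cxcr5, 138 reached the minimum in CD8 cells and 106 (76.8%) were called in fewer there too, with 1 the opposite way. Many of the 106 were histone and cell-division genes, such as Hist1h1b, Cenpf, Plk1 and Aurka. They are not read as follicular helper genes.

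**Figure D4:**
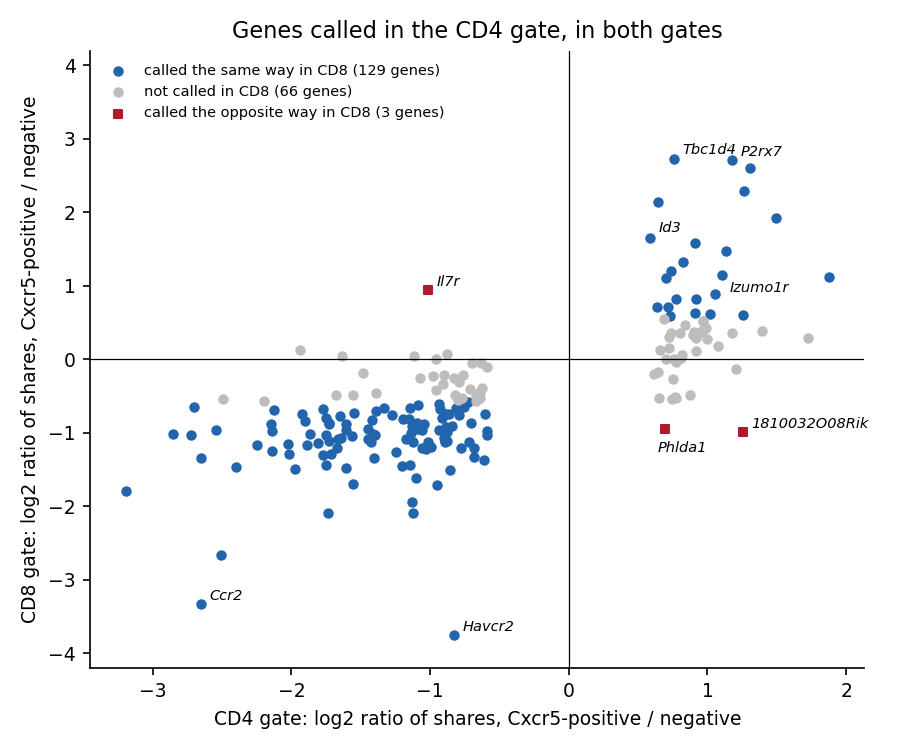
Log2 ratio of shares between cells with and without Cxcr5 in the CD4 gate (horizontal axis) and the CD8 gate (vertical axis), for genes called in the CD4 gate that reached the minimum in the CD8 gate; each point is 1 gene. Of 60 genes on the right, 23 were called the same way in CD8 cells, and of 138 on the left 106 were. Over all genes at the minimum in CD8 cells, 12.5% were called in more and 23.7% in fewer cells with Cxcr5.

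The count of shared genes depended on the settings. It was 35 when cells with both Cd4 and Cd8 transcripts were assigned by the larger count, 40 when cells were gated by cluster, 41 when the removed shift was shared by 60 cells, 7 at a share ratio of 2, and 13 when the exact interval also had to leave out the share in cells without Cxcr5. Cells with Cxcr5 nearly always held Tcf7, so the comparison was repeated among cells with Tcf7 (76 with and 127 without Cxcr5 in the CD4 gate, 58 and 176 in the CD8 gate), a choice made after these values were seen. In CD4 cells Sostdc1 (36.8% against 22.4%) and Izumo1r (42.1% against 21.9%) were still called, where 12.4% of genes were called in more and 8.39% in fewer cells. Il6ra (40.8% against 28.4%) and Tbc1d4 (55.3% against 37.9%) had ratios of 1.44 and 1.46, just under the rule. In CD8 cells Tbc1d4 was still called (31.0%, 19.5 to 44.5, against 9.35%), where 6.2% of genes were called in more and 14.1% in fewer cells. Izumo1r (10.3% against 9.23%), Sostdc1 (8.62% against 8.75%) and Il6ra (5.17% against 6.91%) were at like shares with and without Cxcr5. Of 84 genes called in more CD4 cells with Cxcr5 in this comparison, 71 reached the minimum in CD8 cells, 13 were called the same way and 8 the opposite way. The 13 included Ikzf2, P2rx7 and Pou2af1. Of 57 called in fewer, 47 reached the minimum, 10 were called the same way and 2 the opposite way. Id3 in CD8 cells was then at 75.9% against 69.2%, and Tox2 at 41.4% against 32.9%.

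By list, the genes that went with Cxcr5 differed between the gates, with lists that share some genes (Tcf7, Id3 and Ccr7 are on more than 1). Of the follicular helper receptor and ligand genes, 4 of 11 at the minimum were in more CD4 cells with Cxcr5 (Il21, Il6st, P2rx7 and Angptl2) and 5 of 8 in more CD8 cells (Cd200, P2rx7, Ccr7, Tnfsf8 and Tnfrsf4), with 0 in fewer. Il21 was in 10.5% (4.90 to 18.9) against 6.62% of CD4 cells, and its call was lost under most other gates and shift settings, with log2 ratios of 0.11 (shift shared by 15 cells), 0.17 (gated by the larger count), 0.37 (shift shared by 60 cells), 0.44 (no minimum of genes) and 0.55 (gated by cluster) against 0.66. Beside these counts, 11.1% of all genes at the minimum were called in more and 19.2% in fewer CD4 cells with Cxcr5, and 12.5% and 23.7% in CD8 cells. The list's median log2 ratio was 0.28 in CD4 and 0.91 in CD8 cells. Of the transcription factor genes, 3 of 9 were in more CD4 cells with Cxcr5 (Tox2, Id3 and Pou2af1) and 4 of 8 in more CD8 cells (these and Tcf7), and Id2, which favours effector cells, was in fewer in both. The CD4 call of Id3 lay at the edge of the rule (log2 ratio 0.587). It was lost with a shift shared by 15 cells (0.583) and with 10 depth bins (0.558). Tcf7, which is also on the stem-like list, was in 88.4% (79.7 to 94.3) against 64.6% of CD4 cells. From 64.6% a ratio of 1.5 is barely within reach, so its missing CD4 call does not set the gates apart. Tox2 was in 55.8% against 26.8% of CD4 cells and 39.3% against 21.2% of CD8 cells. Of the stem-like and naive genes, 6 of 7 were in more CD8 cells with Cxcr5 (Tcf7, Id3, Ccr7, Il7r, Xcl1 and Dapl1), but 1 of 5 in more and 1, Il7r, in fewer CD4 cells. The median log2 ratio of that list was 1.51 in CD8 cells and 0.33 in CD4 cells, beside -0.05 and 0.01 over all genes at the minimum. Effector genes were in fewer CD8 cells with Cxcr5 for 9 of 13 (among them Havcr2, at 3.28% against 44.3%, Prf1, at 34.4% against 67.8%, and Ifng, at 14.8% against 33.9%), and for 4 of 9 in CD4 cells. Gzmb was not called in either gate. The median log2 ratio of the effector list was -0.96 in CD8 and -0.57 in CD4 cells. Cell-cycle genes were in fewer CD8 cells with Cxcr5 for 12 of 16 and in fewer CD4 cells for 7 of 16, with 0 in more, and medians of -0.86 and -0.26.

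Most of these CD8 calls ended among CD8 cells with Tcf7, where 6.2% of genes were called in more and 14.1% in fewer cells with Cxcr5. Of the stem-like and naive genes (Tcf7 aside) 0 of 6 were then called in more, and Dapl1 was called in fewer (17.2% against 29.6%). Ccr7 was in 34.5% against 32.7%, Il7r in 48.3% against 51.2% and Xcl1 in 41.4% against 31.0%. Of 12 effector genes Havcr2 was called in fewer (1.72% against 14.4%) and Ccl3, a chemokine gene, in more (27.6% against 12.7%). Prf1 was in 34.5% against 37.2% and Ifng in 12.1% against 18.0%. Of 8 receptor and ligand genes P2rx7 was called, and of 7 transcription factor genes Pou2af1. Cell-cycle genes were in fewer cells with Cxcr5 for 8 of 16. In CD4 cells with Tcf7, 2 of 10 receptor and ligand genes were called in more (Angptl2 and P2rx7), 2 of 8 transcription factor genes in more (Pou2af1 and Tox2) with Id2 in fewer, and 3 of 14 cell-cycle genes in fewer. Of 7 effector genes there, 4 were called in fewer (Ccl5, Havcr2, Id2 and Nkg7) and 0 in more. Of 4 stem-like and naive genes, Il7r was called in fewer and 0 in more. Beside these counts, 12.4% of genes were called in more and 8.39% in fewer of these CD4 cells.

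Of 7 regulatory T-cell genes at the minimum, Ikzf2 was in more and Capg in fewer CD4 cells with Cxcr5, while in CD8 cells Ikzf2 and Tnfrsf4 were in more and Il2ra and Capg in fewer. Foxp3 was in 0 of 86 CD4 cells (interval 0 to 4.199%) and 0 of 61 CD8 cells (0 to 5.87%) with Cxcr5. Il2ra, which encodes the IL-2 receptor alpha chain, was in 12.8% against 13.7% of CD4 cells and 6.56% against 21.3% of CD8 cells. Of the anergy genes, a state also marked by Izumo1r and Tbc1d4 in the list used, 0 of 3 were called in CD4 cells and 1 of 5, Ndrg1, in CD8 cells. Of 3 IL-6 receptor signalling genes at the minimum, Il6st (32.6% against 19.7%) and Il21, whose call depended on the settings as above, were in more CD4 cells with Cxcr5, and 0 of 2 were called in CD8 cells.

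Among all genes, those with the highest ratios differed between the gates. In CD4 cells the 5 with the highest ratio were Zfyve28 (12.8% of cells with Cxcr5 against 1.05%), Cebpa (11.6% against 3.01%), Ociad2 (12.8% against 3.48%), Utf1 (16.3% against 4.77%) and Slc19a1, a folate carrier gene (16.3% against 4.92%). Of these, Ociad2 was also called in CD8 cells, at 34.4% against 15.8%. In CD8 cells they were Tbc1d4, P2rx7, Gm14085 (29.5% against 4.83%), Ccr6 (49.2% against 9.57%) and Pou2af1 (11.5% against 2.35%). Ccr6, the receptor gene for CCL20, was in 3.49% of CD4 cells with Cxcr5, so it went with Cxcr5 in CD8 cells and was below the minimum in CD4 cells. Tbc1d4 and P2rx7 had near-equal ratios (log2 2.73 and 2.72), and their order turned under some other settings, such as a threshold of 0.75 of 1 UMI. At the low end in CD4 cells were Neil3 (1.16% against 10.7%), Ahr (1.16% against 10.3%), Ifitm1 (2.33% against 17.6%), Cenpf (2.33% against 16.9%) and Hmmr (2.33% against 15.4%). In CD8 cells the low end held Havcr2, which encodes the inhibitory receptor TIM-3, Ccr2 (3.28% against 33.0%), the histone genes Hist1h3g and Hist1h2bh, and Epas1 (1.64% against 10.4%).

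The tacrolimus library gave 12 CD4 cells with Cxcr5, in which the same genes could be read from whole UMIs without any removal of a shift. These 12 cells (median 9338.5 UMIs, against 11498 in 279 cells without Cxcr5) all held Tcf7 (100%, 73.5 to 100), which was in 11.5% of the others. Il6ra was in 10 of the 12 (83.3%, 51.6 to 97.9) against 6.81%, Tbc1d4 in 7 (58.3%, 27.7 to 84.8) against 7.89%, Izumo1r in 4 (33.3%, 9.92 to 65.1) against 13.3% and Sostdc1 in 2 against 0 of 279. Id3 was in 9 of the 12 against 11.5%, and Tox2 in 4 against 4.30%. Other genes of these lists did not differ in that direction or differed little: Maf was in 41.7% against 65.6%, Pdcd1 in 50% against 64.5%, Icos in 83.3% against 86.0% and Il21 in 16.7% against 14.3%. Mki67, a marker of dividing cells, was in 0 of the 12 against 68.1%, and Gzmb in 1 against 89.2%. At least 2 of the 4 other members were in 8 of the 12 cells (66.7%, 34.9 to 90.1) and in 10 of 279 cells without Cxcr5 (3.58%). Among tacrolimus CD8 cells there were 0 with Cxcr5, so no such comparison can be made there.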

How the data were processed

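Spleen cells were profiled with a droplet-based 5′ kit, 1 library per treatment. Per the submitters' processing notes, Cell Ranger 3.1.0, Seurat (version not given in the sources used here) and build mm10 were used. The authors deposited 2000 genes per cell as natural log values scaled per cell. All tacrolimus values (100%) were whole UMIs at a scale of 50000 (tolerance 0.001). Among anti-IL-2 values 13.9% were negative and 42.0% were 0, as after batch integration, so its levels are not used as expression. The design had assumed UMIs. The tacrolimus file repeated 308 anti-IL-2 columns, used once as anti-IL-2 cells, and the libraries shared 4 barcodes.

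For each anti-IL-2 cell a UMI total was fitted and a gene's shift, shared by 30 neighbouring cells, was removed. Detection required more than 0.5 of the value that 1 UMI gives. Fitted totals lay within 1.25-fold of directly read ones in 97.6% of 42 cells read from 2 or more values and 84.7% of 59 read from 1 value. Between 0.25 and 0.75 of that value lay 0 of 1183 cells for Cxcr5, 4 to 11 for the other members, 12 for Cd4, 23 for Cd8a, 34 for Cd8b1 and 28 for Tcf7. UMI numbers per gene were not used in the main results, since whole UMIs beyond detection are less certain. The alternative settings that assigned cells by the larger Cd4 or Cd8 count, or required 2 UMIs of Cxcr5, did rest on them. A state confined to the anti-IL-2 library can lose part of its detections in this step. The procedure was tested on simulated data, on which its settings had been chosen with another draw.

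Cells with at least 200 genes were kept, and 83 anti-IL-2 and 59 tacrolimus cells with at least 2 B, 3 erythroid or 3 myeloid markers were left out. No doublet caller was run. Cxcr5-negative anti-IL-2 cells were weighted to 5 depth bins. The members, lists and thresholds were chosen with earlier results of these data known. The genes named are the members, list genes past the size rule, a short set of follicular helper and effector genes, and the 5 with the highest and lowest ratio per gate. Tools were Python 3.11.15, scikit-learn 1.9.0, scanpy 1.11.5 and, for simulation, R 4.3.3 with Seurat 5.3.0. Some genes are not reported here.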

Additional observations from a re-analysis of the deposited data

Results flagged for a closer look

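The following 3 genes were called in opposite directions in the CD4 and CD8 gates of the anti-IL-2 library when cells with Cxcr5 were set against those without. The difference between the gates was not tested, since all cells came from 1 library. Il7r, the IL-7 receptor gene, had a log2 ratio of -1.01 in CD4 cells (23.3% with and 46.9% without Cxcr5) and 0.94 in CD8 cells (45.9% and 23.9%). Phlda1 had a log2 ratio of 0.70 in CD4 cells (15.1%, 8.30 to 24.5, and 9.32%) and -0.95 in CD8 cells (8.20%, 2.72 to 18.1, and 15.8%). These values rest on 13 CD4 and 5 CD8 cells, and both intervals include the share in cells without Cxcr5. The CD4 call of Phlda1 was lost under both other gates, without a minimum of genes and with a shift shared by 60 cells. It was also lost without depth weighting and with 10 depth bins. The transcript 1810032O08Rik had a log2 ratio of 1.253 in CD4 cells (20.9% and 8.78%) and -0.99 in CD8 cells (6.56% and 12.999%). Its CD8 value rests on 4 cells with Cxcr5, and their interval (1.82 to 15.9) includes the share in cells without Cxcr5.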

How the results depend on the processing

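With 1 library per treatment, no library could be left out. No paired analysis was possible because each group has 1 sample. Depth limits the shares, since a cell with few UMIs can hold a gene that was not detected. Of 157 alternative values for the main shares and counts, 122 stayed within the interval of the share or within 1.5 times the count. Reading deposited values above 0 as detections moved the most. It put Cxcr5 in 26.0% of anti-IL-2 CD8 cells and gave 899 genes in more and 12 in fewer anti-IL-2 CD4 cells (112 and 342 in the report). For CD8 cells it gave 1250 and 0 (78 and 92), called 1 other member with Cxcr5, and reversed Izumo1r (log2 ratio -0.39) and P2rx7 (-0.28). The shift is left in under that setting, and the 1 CD4 cell with Cxcr5 gave no comparison.

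Assigning cells with both Cd4 and Cd8 by the larger count called 4 members with Cxcr5 in CD8 cells and gave 35 genes shared by both gates (23 in the report). Gating by cluster gave 10.8%, 4 and 40 for the Cxcr5 share in CD8 cells, the members and the shared genes, and turned 1810032O08Rik to 0.28 in CD8 cells. A shift shared by 60 cells gave 41 shared genes. Cells with a directly read total, in which 2 CD4 and 8 CD8 cells with Cxcr5 were too few to compare, gave Cxcr5 in 18.2% and 24.2%, 226 genes in more anti-IL-2 CD4 cells, and 185 in more and 328 in fewer CD8 cells. A share ratio of 2 between libraries left 71 and 226 genes in CD4 and 41 and 43 in CD8 cells, and a minimum of 10% left 51 in more CD8 cells. A share ratio of 2 for cells with Cxcr5 left 25 genes in more and 92 in fewer CD4 cells, of which 7 and 44 were shared, and 2 UMIs of Cxcr5 gave 129 in more. The causes of these shifts were not tested.

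The following were added after seeing the data. Requiring both Cd8a and Cd8b1, or the exact interval, called 1 member in CD8 cells, and the interval left 13 shared genes. Among cells with Tcf7, 2 members were called in CD4 and 1 in CD8 cells, 13 genes in more cells were shared, and 57 in fewer CD4 cells were called, 10 of them shared. Mki67 there turned to 0.059 in CD4 cells and Il7r to -0.085 in CD8 cells.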
